A study of Oryza sativa with 12 samples.

Results

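The transcriptomes of root and shoot were compared in wild-type rice, to find the pathways, transporters and regulators that mark each organ. The 3 WT root libraries (replicates 1 to 3) were set against the 3 WT shoot libraries (replicates 1 to 3), chosen by organ and genotype from the sample labels, which makes 6 of the 12 RNA-seq libraries of the series. WT is Nipponbare, a japonica cultivar, and the plants were 21 days old and grown hydroponically. The other 6 libraries are 3 roots and 3 shoots of OX6, a line that overexpresses Zaxinone Synthase, and entered only where the same organ comparison was repeated on plants of that line. The labels name no treatment beside the genotype, but every sample title carries a letter P that they do not explain, so a growth condition shared by all libraries, such as the nutrient supply, is not known here. The promoter of the OX6 transgene is not given in the sources used here. Gene names come from the homologue listed in the deposited table, and rice symbols such as Lsi1 or CRL1 were matched to loci from background knowledge.

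The shoot of a rice seedling carries the photosynthetic leaves, in which chloroplasts fix carbon and a waxy cuticle limits water loss. The root takes up water and ions across its epidermis and exodermis, passes them through an endodermis sealed by a Casparian strip, and loads them into the xylem, while it lives on sucrose from the leaves. Many enzymes and transporters are encoded by small gene families whose members are divided between the organs. The labels name organs and not cell types, so a lower level in bulk RNA can come from fewer cells of a type or from less RNA per cell, and these cannot be told apart.

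WT root libraries held total counts of 36464029, 36948155 and 36987990 and WT shoot libraries of 34355048, 62910092 and 37524787. Root RNA was spread over more genes: 50% of the counts came from 1523 to 1539 genes in root and from 662 to 714 genes in shoot. The top 10 genes by count held 3.92 to 4.31% of the root counts and 11.5 to 12.3% in shoot. Of 73 shoot marker models (rubisco small subunit and activase, antenna and photosystem proteins, YABBY factors, GLK1 and GLK2), 49 were tested and 47 were called higher in shoot and 0 higher in root, by the rule given below. The list summed to 159 to 214 counts per 1000000 counts of the library total in root and to 170000 to 184000 in shoot. Of 12 root markers 11 were tested, and 9 were called higher in root and 0 in shoot. On the same scale of library totals, this list summed to 9010 to 10100 in root and to 42.5 to 54.9 in shoot. Values below are CPM (counts per 1000000 counts of the effective library size). They are given as mean ± SD over n = 3 libraries or for replicates 1, 2 and 3 in that order. The labels do not say that the replicates came from separate plants, and the p-values reflect the spread among the libraries alone, part or all of which may be technical.

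A large share of the transcripts differed at least 2-fold between the organs. A gene was called when its adjusted p from edgeR's quasi-likelihood test was under 0.05 and its estimated change was at least 2-fold, and log2 fold changes are root over shoot. Of 27868 genes with enough counts to be tested, 20002 passed the p-value limit at any fold (71.8%) and 13023 (46.7%) were called, 6011 higher in root (21.6%) and 7012 higher in shoot (25.2%), with a median log2 fold change of -0.03 over all genes. These shares are the background against which each gene group is read. No such share was counted for genes whose root and shoot libraries did not overlap, so non-overlap is given below as description only. An abundant gene that was not called was the glycine-rich RNA-binding protein GRP1A (LOC_Os12g43600), at 3943 ± 367 CPM in WT root and 3571 ± 116 CPM in WT shoot (log2 fold change 0.14, not called). Large differences were common: 1825 genes were at least 16-fold higher in root and 2422 at least 16-fold higher in shoot. Genes called for root held 35.5 to 35.9% of the root counts and 4.83 to 5.02% of the shoot counts. Genes called for shoot held 6.08 to 6.17% of the root counts and 56.7 to 58.4% of the shoot counts. The balance of the calls depends on scaling. With upper-quartile scaling 6825 genes were called higher in root and 6418 higher in shoot. With library totals alone the median gene moved to a log2 fold change of 0.52, and the calls became 9225 higher in root and 5431 higher in shoot.

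**Figure D1:**
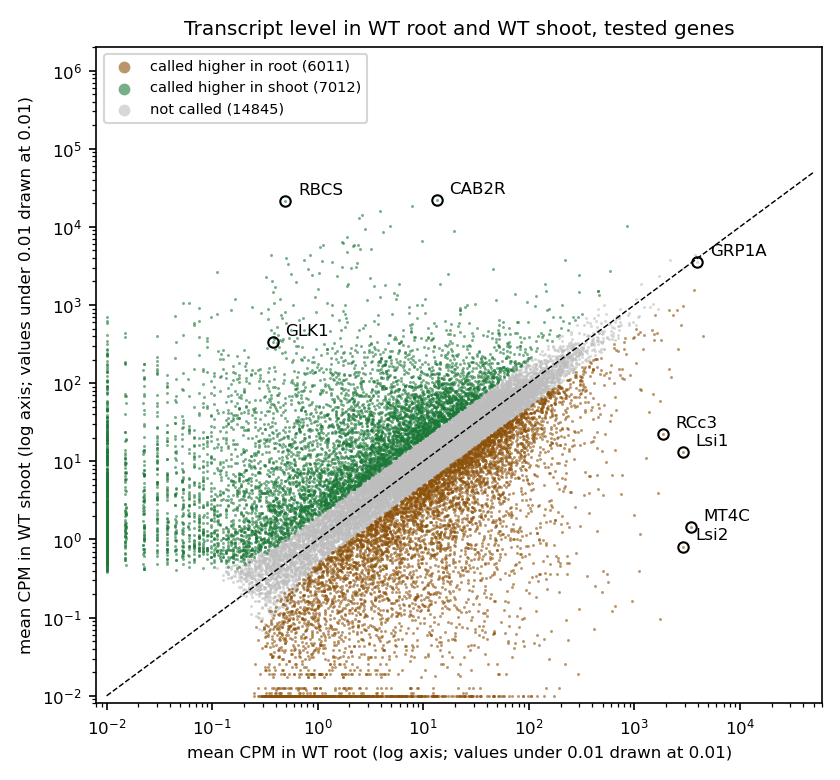
Mean level of each tested gene in WT root (x axis) and WT shoot (y axis), in CPM on log axes, n = 3 libraries per organ, with the dashed line marking equal levels. Genes called higher in root lie to the lower right (6011) and genes called higher in shoot to the upper left (7012), and the circles mark genes named in the text.

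Photosynthesis marked the shoot by the share of counts it took. Photosystem, antenna and electron transport genes took 0.123, 0.126 and 0.116% of the counts in the libraries of WT root and 16.8, 15.5 and 15.9% in the WT shoot libraries, and Calvin cycle and photorespiration genes took 0.203, 0.196 and 0.201% in WT root and 6.63, 6.32 and 6.65% in WT shoot. Of 65 tested photosystem genes, 3 were called higher in root and 58 higher in shoot, with a median log2 fold change of -8.33. Of 35 tested Calvin cycle and photorespiration genes, 4 were called higher in root and 30 higher in shoot (median -8.06). Those for root were a pair of glycine cleavage H protein genes (LOC_Os02g07410, 194 against 74 CPM, and LOC_Os06g45670, 21.7 against 8.01 CPM), an aldolase (LOC_Os01g02880, 132 against 42.8 CPM) and a transketolase (LOC_Os04g19740, 9.78 against 4.32 CPM), root against shoot. A rubisco small subunit gene (LOC_Os12g17600, chromosome 12, 10080398 to 10081661), which encodes a subunit of the carbon-fixing enzyme, had 24, 22 and 20 counts in the libraries of WT root and 551041, 1127398 and 713317 counts in the WT shoot libraries. That is 0.494 ± 0.0488 CPM in WT root and 21380.4 ± 1803 CPM in WT shoot (log2 fold change -15.39, SE 0.235, adjusted p = 1.64e-11). Among genes with an informative name it was also the most abundant shoot transcript per length. It had 0.748 TPM (counts per base of gene length, scaled to 1000000 per library) in WT root and 22264 in WT shoot. The antenna protein gene CAB2R (LOC_Os01g41710) averaged 13.5 ± 4.62 CPM in WT root and 21821 ± 2485 CPM in WT shoot, and CAB1R (LOC_Os09g17740) 7.79 CPM in WT root and 18344 CPM in WT shoot. Rubisco activase (LOC_Os11g47970), which keeps rubisco in its active form, averaged 0.359 CPM in WT root and 4390.3 CPM in WT shoot. Reads of near-identical rubisco and antenna genes may be divided between copies, so the value of a single locus is less certain than the sum.

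The photosystem genes called for root were not photosystem subunits but ferredoxins, small iron-sulfur proteins that carry electrons. Ferredoxin-1 (LOC_Os08g01380), which accepts electrons from photosystem I, averaged 0.525 CPM in WT root and 3312 CPM in WT shoot. The 3 called for root were ferredoxin-3 (LOC_Os03g61960, 176 against 59.5 CPM, root against shoot) and the ferredoxin-6 genes LOC_Os05g37140 (270.4 against 16 CPM) and LOC_Os01g64120 (290.4 against 23.6 CPM). Ferredoxin-NADP reductase, the partner enzyme, showed the same division. Its leaf isozyme (LOC_Os02g01340) had 0.068, 0 and 0.0892 CPM in the WT root libraries and 1109, 940.5 and 1101 CPM in the WT shoot libraries. Its root isozyme (LOC_Os03g57120) had 476, 467 and 468 CPM in the WT root libraries and 37.9, 41.9 and 40.2 CPM in the WT shoot libraries. The root and shoot libraries did not overlap for either gene, and their log2 fold changes were -14.21 for the leaf isozyme and 3.56 for the root isozyme (adjusted p = 2.06e-11 and 1.2e-10). As background, root plastids have no light reactions and run this pair from NADPH to ferredoxin, where it serves nitrite reduction.

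Genes that build the chloroplast were also called for shoot. None of 41 tested chloroplast ribosomal protein genes was called for root and 35 were called for shoot (median log2 fold change -5.82), while of 208 cytosolic ribosomal protein genes 2 were called for root and 7 for shoot (median 0.16). Of 30 chlorophyll and heme synthesis genes, 2 were called higher in root and 21 higher in shoot. Those for root were siroheme synthase (LOC_Os01g44050, 131 against 22.2 CPM, root against shoot), which makes the cofactor of nitrite reductase, and a protoporphyrinogen oxidase gene at low level (LOC_Os10g33430, 1.05 against 0.329 CPM). Protochlorophyllide reductase B (LOC_Os10g35370), the light-dependent step of chlorophyll synthesis, averaged 1.01 CPM in WT root and 1615 CPM in WT shoot, and the ChlH subunit of magnesium chelatase (LOC_Os03g20700), which commits porphyrin to chlorophyll, 1.94 CPM in WT root and 1833 CPM in WT shoot. Coproporphyrinogen oxidase (LOC_Os04g52130), a step shared with heme, averaged 123 CPM in WT root and 396 CPM in WT shoot, a smaller log2 fold change of -1.68. Of 36 plastid isoprenoid and carotenoid genes, 4 were called higher in root and 28 higher in shoot (median -2.77). A beta-carotene 3-hydroxylase (LOC_Os03g03370) stood on the root side at 38 CPM in WT root and 6.04 CPM in WT shoot. Geranylgeranyl reductase (LOC_Os02g51080), which makes the phytyl tail of chlorophyll, averaged 2.08 CPM in WT root and 2944 CPM in WT shoot, and phytoene synthase (LOC_Os06g51290), the entry to the carotenoids, 5.94 CPM in WT root and 258 CPM in WT shoot. GLK1 and GLK2, the factors that switch on chloroplast genes, had the same pattern. GLK1 (LOC_Os06g24070, chromosome 6, 14078258 to 14082303) had 0.295, 0.449 and 0.379 CPM in the WT root libraries and 373, 325 and 317 CPM in the WT shoot libraries, and GLK2 (LOC_Os01g13740) averaged 0.337 CPM in WT root and 139.9 CPM in WT shoot. Every WT shoot library exceeded every WT root library for both (log2 fold change -9.81 for GLK1 and -8.68 for GLK2).

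Starch and sucrose enzymes were called for both organs, more often for shoot, though their summed share of the counts was higher in root. That share had a mean of 0.854% in WT root and 0.527% in WT shoot. Of 78 starch and sucrose enzyme genes, 12 were called higher in root and 40 higher in shoot. Among those for shoot were a glucose-1-phosphate adenylyltransferase (LOC_Os03g52460), the first step of starch synthesis, at 0.427 CPM in WT root and 292 CPM in WT shoot, and granule-bound starch synthase 1b (LOC_Os07g22930) at 4.39 CPM in WT root and 272 CPM in WT shoot. Sucrose synthase, which splits imported sucrose in sink tissue, went the other way. Sucrose synthase 1 (LOC_Os03g28330) averaged 3681 ± 131 CPM in WT root and 1535 ± 192 CPM in WT shoot (log2 fold change 1.26) and sucrose synthase 2 (LOC_Os06g09450) 1788 ± 97.7 CPM in WT root and 356 ± 17.7 CPM in WT shoot (log2 fold change 2.33). A cell wall invertase gene named for the insoluble beta-fructofuranosidase (LOC_Os04g33740) averaged 133 CPM in WT root and 26.3 CPM in WT shoot. Of 63 sugar transporter genes, 26 were called higher in root and 18 higher in shoot. The phloem-loading sucrose transporter SUT1 (LOC_Os03g07480) averaged 1.51 CPM in WT root and 38.7 CPM in WT shoot and was called for shoot. SUT2 (LOC_Os12g44380) averaged 43.1 CPM in WT root and 82.5 CPM in WT shoot and was not called. The hexose transporter named sugar transport protein 1 (LOC_Os07g01560) averaged 153 CPM in WT root and 8.49 CPM in WT shoot and was called for root.

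Several steps of nitrogen assimilation had 1 isozyme gene called for root and another called for shoot. Of 20 genes on this list, 7 were called for root and 6 for shoot. Glutamine synthetase joins ammonium to glutamate. A cytosolic isozyme (LOC_Os03g12290) had 1728, 1832 and 1725 CPM in the WT root libraries and 72.4, 50.9 and 51.9 CPM in the WT shoot libraries. The chloroplast isozyme (LOC_Os04g56400) had 153, 131 and 150.1 CPM in the WT root libraries and 1687, 1309 and 1558 CPM in the WT shoot libraries. The organs did not overlap for either gene, and the log2 fold change was 4.92 for the cytosolic and -3.39 for the chloroplast isozyme. Another cytosolic isozyme (LOC_Os02g50240) averaged 377 CPM in WT root and 225 CPM in WT shoot and was not called. Glutamate synthase takes the next step. The gene named glutamate synthase 1 (LOC_Os01g48960), of the NADH-using kind, averaged 713 ± 42.6 CPM in WT root and 152 ± 30.3 CPM in WT shoot and was called for root. The ferredoxin-dependent enzyme (LOC_Os07g46460), which uses electrons from photosynthesis, averaged 142 ± 2.9 CPM in WT root and 1842 ± 236 CPM in WT shoot and was called for shoot. Both steps before it were found among the root calls. Nitrite reductase (LOC_Os01g25484) averaged 2330.4 ± 110.1 CPM in WT root and 744 ± 86.1 CPM in WT shoot. A nitrate reductase (LOC_Os02g53130) averaged 186 ± 11.9 CPM in WT root and 9.57 ± 2.39 CPM in WT shoot, while another nitrate reductase gene (LOC_Os08g36480) averaged 87.9 CPM in WT root and 114 CPM in WT shoot and was not called. Asparagine synthetase, which makes a transport form of nitrogen, was also divided. LOC_Os03g18130 averaged 490.0 CPM in WT root and 13.4 CPM in WT shoot, and LOC_Os06g15420 averaged 40.9 CPM in WT root and 141 CPM in WT shoot.

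**Figure D2:**
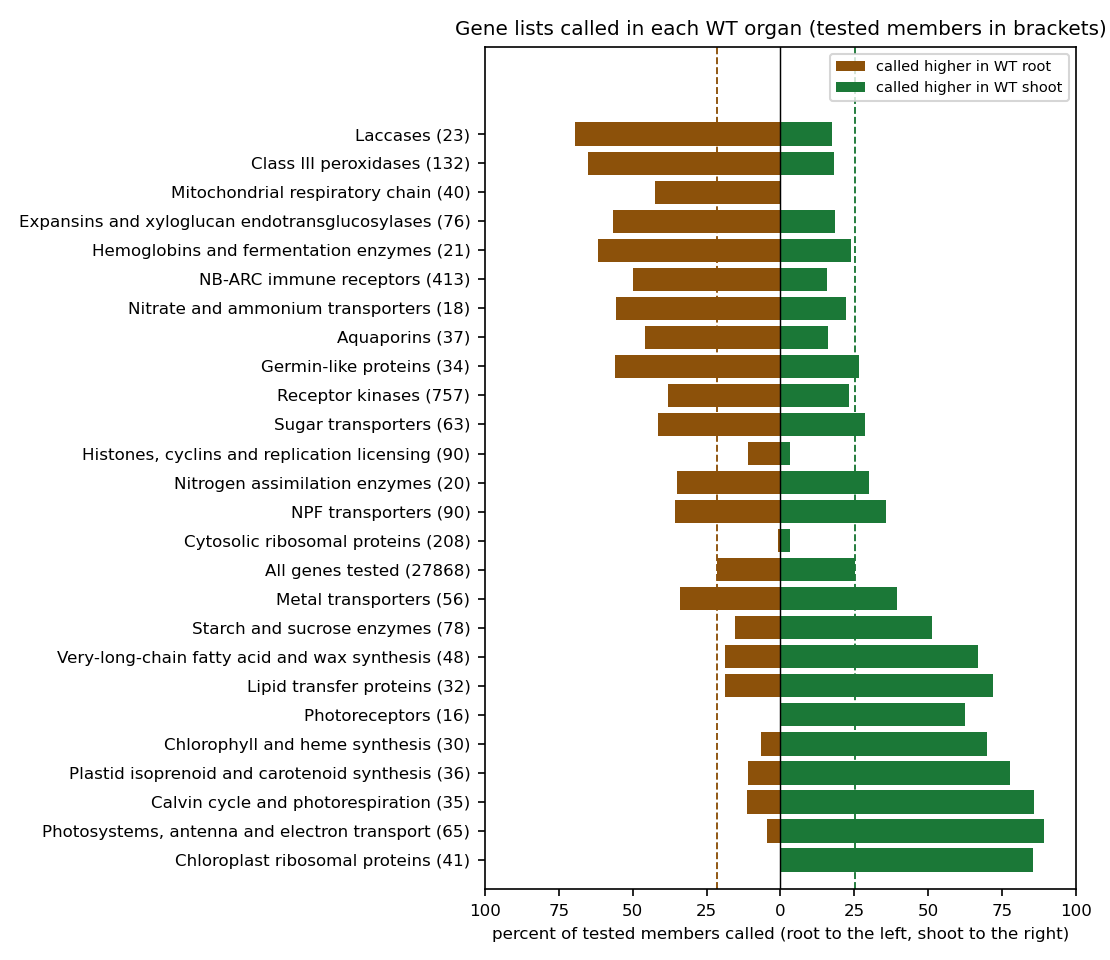
Percent of the tested members of each gene list called higher in WT root (bars to the left) and higher in WT shoot (bars to the right), n = 3 libraries per organ, with dashed lines at the shares over all tested genes (21.6% and 25.2%). Photosynthesis, plastid, wax and lipid transfer lists lie far to the shoot side, and peroxidases, laccases, hemoglobins and expansins to the root side.

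Of 3 tested silicon transporter genes, 2 were called for root, where both were abundant, and 0 for shoot. Rice accumulates silicon through the channel Lsi1, which lets silicic acid in, and the efflux carrier Lsi2, which passes it toward the stele. Lsi1 (LOC_Os02g51110, chromosome 2, 31266245 to 31269960), named aquaporin NIP2-1 in the file, had 2768, 3206 and 2668 CPM in the WT root libraries and 17.6, 11.6 and 10.5 CPM in the WT shoot libraries. Lsi2 (LOC_Os03g01700, chromosome 3, 430478 to 432878), named a putative arsB transporter, had 2825, 3164 and 2696 CPM in the WT root libraries and 1.17, 0.458 and 0.81 CPM in the WT shoot libraries. Every root library was far above every shoot library for both genes (log2 fold change 7.77, SE 0.233, adjusted p = 2.37e-10 for Lsi1, and log2 fold change 11.90, SE 0.271, adjusted p = 3.87e-11 for Lsi2). Lsi6 (LOC_Os06g12310), the related channel known from shoots, had 174, 156 and 163 CPM in the WT root libraries and 129, 115 and 88.8 CPM in the WT shoot libraries. Its log2 fold change of 0.57 did not reach 2-fold and it was not called in WT, although the OX6 organs, compared in their own fit, gave 1.23 and a call for root.

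Water channels were called more often for root. Of 37 tested aquaporins, 17 were called higher in root and 6 higher in shoot (median log2 fold change 0.69). The plasma membrane channel PIP2-7 (LOC_Os09g36930) had 0.0453, 0.157 and 0.134 CPM in the WT root libraries and 2510.3, 3003 and 2505 CPM in the WT shoot libraries, and was the most abundant aquaporin per length called for shoot (0.149 TPM in WT root and 2454 in WT shoot). The tonoplast channel TIP2-1 (LOC_Os02g44080) had 742, 549.6 and 674 CPM in the WT root libraries and 0, 0.362 and 0.0648 CPM in the WT shoot libraries. The plasma membrane channel PIP2-3 (LOC_Os04g44060) averaged 427 CPM in WT root and 0.253 CPM in WT shoot, and PIP1-3 (LOC_Os02g57720) 606 CPM in WT root and 38.6 CPM in WT shoot. The root and shoot libraries did not overlap for these 4. TIP1-1 (LOC_Os03g05290, 1418 against 949.6 CPM, root against shoot) and PIP1-1 (LOC_Os02g44630, 979.7 against 606 CPM) were not called.

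Of 21 nitrate and ammonium transporter models, 18 were tested, and 10 were called higher in root and 4 higher in shoot (median log2 fold change 1.93). Ammonium transporter 1 member 2 (LOC_Os02g40730) had 125, 170.1 and 129 CPM in the WT root libraries and 4.07, 1.47 and 1.72 CPM in the WT shoot libraries (log2 fold change 5.94). It was the most abundant root call of the list per length, at 124 TPM in WT root and 1.47 in WT shoot. Ammonium transporter 1 member 1 (LOC_Os04g43070) averaged 88.5 CPM in WT root and 21 CPM in WT shoot and was called for root. Ammonium transporter 1 member 3 (LOC_Os02g40710) held no count in WT shoot and averaged 13.2 CPM in WT root, at least 489-fold higher against a floor of 3 counts over the 3 shoot libraries. NAR2.1 (LOC_Os02g38230), the partner protein that high-affinity nitrate transporters need, had 34.7, 39.7 and 41.7 CPM in the WT root libraries and 0, 0.114 and 0.227 CPM in the WT shoot libraries. The NRT2.2 locus (LOC_Os02g02190, named high-affinity nitrate transporter 2.1 in the table) averaged 0.539 CPM in WT root with no count in WT shoot. The near-identical NRT2.1 locus (LOC_Os02g02170) held 1, 1 and 2 counts in root and none in shoot and was not tested, and reads may be divided between these copies. For shoot, a probable high-affinity nitrate transporter (LOC_Os01g36720) was called, with no count in WT root and 9.51 CPM in WT shoot. The larger NPF family of nitrate and peptide transporters was called 32 times for root and 32 for shoot of 90 tested. A pair of genes named for NPF6.3, the nitrate sensor and transporter of Arabidopsis, was called for root: LOC_Os08g05910 (248 against 112 CPM, root against shoot) and LOC_Os10g40600 (234 against 21.6 CPM).

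Phosphate carriers were called for both organs. PHO1;2 (LOC_Os02g56510, chromosome 2, 34609408 to 34615666), which exports phosphate into the xylem, had 247, 282 and 243 CPM in the WT root libraries and 16.4, 18 and 13.2 CPM in the WT shoot libraries (log2 fold change 4.02, SE 0.136, adjusted p = 5.77e-10). PHT1;2 (LOC_Os03g05640), a plasma membrane carrier, averaged 50.1 ± 6.81 CPM in WT root and 0.414 ± 0.265 CPM in WT shoot. The plastid carrier named inorganic phosphate transporter 2-1 (LOC_Os02g38020) went the other way at 0.951 ± 0.116 CPM in WT root and 141 ± 13.5 CPM in WT shoot. Of 22 phosphate transporter and SPX genes, 8 were called higher in root and 5 higher in shoot. The internal phosphate sensors SPX1 (LOC_Os06g40120, 13.6 against 11.9 CPM, root against shoot) and SPX4 (LOC_Os03g61200, 19.9 against 22.7 CPM) were not called. Of 75 potassium, sodium and sulfate transporters, 21 were called higher in root and 33 higher in shoot. Potassium transporter 1 (LOC_Os04g32920) averaged 412 CPM in WT root and 20.4 CPM in WT shoot, a call for root. Sulfate transporter 1.2 (LOC_Os03g09980) averaged 99 CPM in WT root and 2.21 CPM in WT shoot, and the potassium inflow channel AKT1 (LOC_Os01g45990) 44.1 CPM in WT root and 17.2 CPM in WT shoot, both called for root. Among those called for shoot were sulfate transporter 3.1 (LOC_Os03g06520, 8.07 against 102 CPM, root against shoot) and a chloroplast potassium efflux antiporter (LOC_Os12g42300, 1.93 against 100.2 CPM).

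Rice takes up iron both as the free ion and chelated to deoxymugineic acid, a compound made from nicotianamine. These genes did not all follow the root. The iron-chelate carrier YSL15 (LOC_Os02g43410) averaged 7.41 ± 0.579 CPM in WT root and 0.192 ± 0.115 CPM in WT shoot. The nicotianamine synthase NAS1 (LOC_Os03g19427) averaged 9.12 CPM in WT root and 0.137 CPM in WT shoot, and NAS2 (LOC_Os03g19420) 11.8 CPM in WT root and 0.161 CPM in WT shoot. The chelator exporter TOM1 (LOC_Os11g04020, named for the Arabidopsis ZIF1 carrier in the table) averaged 3.53 CPM in WT root with no count in WT shoot. These 4 were called for root. The iron carrier IRT1 (LOC_Os03g46470) averaged 0.449 CPM in WT root and 0.735 CPM in WT shoot and was not called. Nor were NAS3 (LOC_Os07g48980), at 66.6 CPM in WT root and 82 CPM in WT shoot, or DMAS1 (LOC_Os03g13390), the last enzyme of the route, at 27.6 CPM in WT root and 32.3 CPM in WT shoot. The NAAT1 locus (LOC_Os02g20360, chromosome 2, 11997094 to 12002633), whose enzyme acts between them, had 5.01, 5.85 and 5.13 CPM in the WT root libraries and 346, 371 and 385 CPM in the WT shoot libraries. It was called for shoot (log2 fold change -6.11, SE 0.121, adjusted p = 2.06e-11), while another nicotianamine aminotransferase gene (LOC_Os02g19970) was called for root at 43 CPM in WT root and 18.9 CPM in WT shoot. Ferritin, which stores iron in plastids, was called for shoot at both loci (LOC_Os12g01530, 18.3 against 565 CPM, root against shoot, and LOC_Os11g01530, 18.2 against 277 CPM). Over the list of 45 iron genes, 15 were called higher in root and 12 higher in shoot.

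Metal transporters were called for both organs, and 3 carriers known for manganese, zinc or cadmium transport in rice were among the root calls. NRAMP5 (LOC_Os07g15370), the main manganese and cadmium entry route of rice, had 159, 181 and 156 CPM in the WT root libraries and 17.6, 14.5 and 18.7 CPM in the WT shoot libraries. HMA3 (LOC_Os07g12900, named HMA2 in the table), which locks cadmium in root vacuoles, averaged 84.6 CPM in WT root and 10.9 CPM in WT shoot, and HMA2 (LOC_Os06g48720, named HMA4 in the table), which moves zinc and cadmium toward the xylem, 21.4 CPM in WT root and 1.81 CPM in WT shoot. The organs did not overlap for any of these 3. Over 56 metal transporters, 19 were called higher in root and 22 higher in shoot, shares of 33.9% and 39.3%. Zinc transporter 8 (LOC_Os07g12890, 8.02 against 195 CPM, root against shoot) and a chloroplast copper pump (LOC_Os03g08070, 17.9 against 112 CPM) were among the shoot calls. Metallothioneins, small cysteine-rich metal-binding proteins, were called for both organs. Type 4C (LOC_Os12g38300) had 3395, 3463 and 3519 CPM in the WT root libraries and 1.1, 1.83 and 1.36 CPM in the WT shoot libraries. Among genes with an informative name it was the most abundant root transcript per length, at 25285 TPM in WT root and 7.21 in WT shoot. Type 3A (LOC_Os01g10400) had 15.6, 21 and 22.2 CPM in the WT root libraries and 6798, 9163 and 10380.0 CPM in the WT shoot libraries. Of 12 tested metallothioneins, 6 were called higher in root and 5 higher in shoot.

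**Figure D3:**
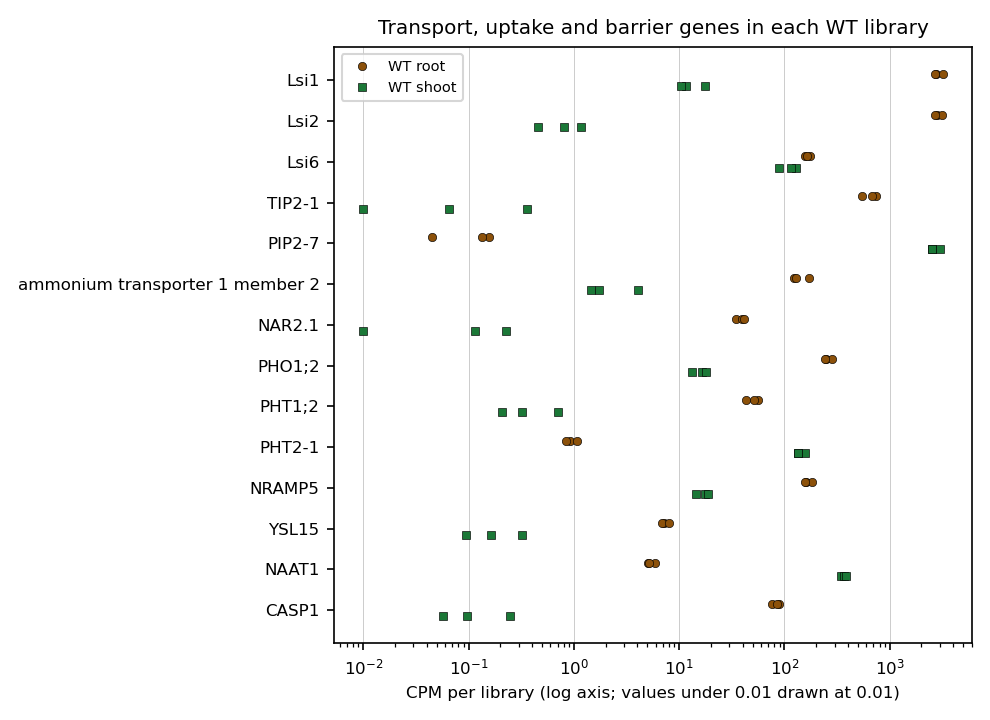
CPM on a log axis for 14 transport, uptake and barrier genes, 1 point per library (3 WT root libraries as circles above, 3 WT shoot libraries as squares below). Lsi1 and Lsi2 lie near 2881 and 2895 CPM in root, root and shoot points lie closest together for Lsi6, and PIP2-7, PHT2-1 and NAAT1 lie to the right in shoot.

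Several lists of wall and barrier genes were called more often for root, but not all. Of 72 pectin-modifying enzymes, 26.4% were called for root and 23.6% for shoot, near the shares over all genes. The suberin and cutin list leaned to shoot, at 21.2% for root and 39.4% for shoot. Casparian strip membrane protein 1 (LOC_Os04g58760, chromosome 4, 34950466 to 34951726), a scaffold of the endodermal barrier, had 87.9, 76.9 and 84.4 CPM in the WT root libraries and 0.248, 0.0572 and 0.0973 CPM in the WT shoot libraries (log2 fold change 9.43, SE 0.229, adjusted p = 5.44e-11). The gene named for MYB36 (LOC_Os09g26170), which in Arabidopsis switches on Casparian strip genes, averaged 149 ± 9.86 CPM in WT root and 0.612 ± 0.259 CPM in WT shoot. Of 65 CASP-like and dirigent protein genes, 29 were called higher in root and 17 higher in shoot. Their summed share of the counts did not follow the calls, at a mean of 0.192% in WT root and 0.204% in WT shoot. Class III peroxidases, which cross-link lignin and suberin phenolics in the wall, numbered 132 tested genes, of which 86 were called higher in root and 24 higher in shoot (median log2 fold change 2.92). A peroxidase 1 gene (LOC_Os07g01410) averaged 499 CPM in WT root and 0.214 CPM in WT shoot, and a peroxidase 72 gene (LOC_Os04g34630) 301 CPM in WT root and 0.13 CPM in WT shoot. Peroxidase 4 (LOC_Os02g14440) held no count in WT root and averaged 139.9 CPM in WT shoot. Laccases, which oxidise lignin precursors, were called 16 times for root and 4 for shoot of 23. Laccase-25 (LOC_Os12g15920) averaged 81 CPM in WT root and 0.0763 CPM in WT shoot, and laccase-7 (LOC_Os01g63190), on the shoot side, 34.7 CPM in WT root and 142 CPM in WT shoot. Expansins and xyloglucan endotransglucosylases, which loosen growing walls, were called 43 times for root and 14 for shoot of 76, with expansin-B7 (LOC_Os03g01270) at 207 CPM in WT root and 6.03 CPM in WT shoot. Of 29 cellulose synthase and COBRA genes 10 were called higher in root and 5 higher in shoot. Phenylalanine ammonia-lyase (LOC_Os02g41630), the entry to the phenylpropanoids, averaged 2885 CPM in WT root and 964 CPM in WT shoot, and over the 125 genes of that pathway 43 were called higher in root and 47 higher in shoot.

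Genes of the leaf surface were called mainly for shoot. Of 48 very-long-chain fatty acid and wax genes, 9 were called higher in root and 32 higher in shoot (median log2 fold change -5.58). The summed share of the counts did not follow the calls, at a mean of 0.149% in WT root and 0.136% in WT shoot. The gene named ECERIFERUM 1 (LOC_Os02g56920), for the alkane-forming enzyme of Arabidopsis leaf wax, had 0.068, 0 and 0.0669 CPM in the WT root libraries and 64.5, 57.8 and 51.3 CPM in the WT shoot libraries, and ECERIFERUM 3 (LOC_Os09g25850) averaged 0.344 CPM in WT root and 78.3 CPM in WT shoot. A 3-ketoacyl-CoA synthase (LOC_Os03g08360), which lengthens fatty acids, averaged 0.578 CPM in WT root and 196 CPM in WT shoot. Some members of these families were called for root. The gene named 3-ketoacyl-CoA synthase 20 (LOC_Os11g37900) averaged 324 CPM in WT root and 96.5 CPM in WT shoot, and the feruloyl transferase of suberin (LOC_Os11g31090) 446 CPM in WT root and 23.5 CPM in WT shoot. Over the suberin and cutin list of 33 genes, 7 were called higher in root and 13 higher in shoot. Lipid transfer proteins, secreted carriers abundant in epidermis, took a mean of 0.478% of the counts in WT root and 0.407% in WT shoot. They were called 6 times for root and 23 for shoot of 32 (median -5.02). Those for root included RCc3 (LOC_Os02g44310, named proline-rich protein DC2.15 in the table), a root cortex protein, at 1872 ± 61.7 CPM in WT root and 22.4 ± 12.6 CPM in WT shoot, and the lipid transfer protein gene LOC_Os05g47700 at 1491 CPM in WT root and 72.6 CPM in WT shoot.

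Hemoglobin and ethanol fermentation genes, which in rice respond to low oxygen, were called mainly for root. Of 21 hemoglobin and fermentation genes, 13 were called higher in root and 5 higher in shoot (median log2 fold change 3.15). Non-symbiotic hemoglobin 1 (LOC_Os03g13140, chromosome 3, 7092739 to 7094015), which scavenges nitric oxide, had 1715, 1495 and 1782 CPM in the WT root libraries and 1.35, 4.92 and 5.71 CPM in the WT shoot libraries, and its neighbours hemoglobin 3 (LOC_Os03g13150) and hemoglobin 4 (LOC_Os03g13160) held no count in WT shoot and averaged 20.9 and 24.3 CPM in WT root. Alcohol dehydrogenase 2 (LOC_Os11g10510), the last step of ethanol fermentation, had 1165, 829.6 and 964 CPM in the WT root libraries and 1.17, 2.36 and 2.59 CPM in the WT shoot libraries. The adjacent gene of the same name (LOC_Os11g10520) averaged 1.5 CPM in WT root and 42.4 CPM in WT shoot and was called for shoot, and alcohol dehydrogenase 1 (LOC_Os11g10480) averaged 105 CPM in WT root and 94.5 CPM in WT shoot and was not called. Pyruvate decarboxylase 2 (LOC_Os03g18220), the step before, averaged 516 CPM in WT root and 93.7 CPM in WT shoot. Of 40 mitochondrial respiratory chain genes 17 were called for root and 0 for shoot, with a median log2 fold change of 0.89. With library totals alone the median of this list was 1.44 and that of all genes 0.52. Histones, cyclins and replication genes, a guide to dividing cells, were mostly not called (77 of 90).

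Defence genes were frequent among the root calls. NB-ARC proteins, the intracellular immune receptors, numbered 413 tested genes, of which 206 were called higher in root and 65 higher in shoot (median log2 fold change 1.04), and of 757 receptor kinases 289 were called higher in root and 175 higher in shoot (median 0.39). The most abundant NB-ARC gene called for root per length (LOC_Os02g25900, 46.5 TPM in WT root and 5.85 in WT shoot) averaged 108 CPM in WT root and 19.6 CPM in WT shoot. Of 153 chitinase, glucanase, inhibitor and PR protein genes, 57 were called higher in root and 33 higher in shoot. A PR-1 type protein named PRB1-2 (LOC_Os10g11500) had 1140.1, 1142 and 1143 CPM in the WT root libraries and 0.142, 2.56 and 0.875 CPM in the WT shoot libraries, with no overlap. Chitinase 2 (LOC_Os05g33130), which attacks fungal walls, averaged 447 CPM in WT root and 6.64 CPM in WT shoot. A Bowman-Birk protease inhibitor (LOC_Os01g03310) went the other way at 0.0448 CPM in WT root and 722 CPM in WT shoot. Of 43 genes named for diterpenoid phytoalexin enzymes, 20 were called higher in root and 15 higher in shoot. The root calls included ent-cassadiene C2-hydroxylase (LOC_Os01g72740, 129 against 1.62 CPM, root against shoot) and oryzalexin E synthase (LOC_Os09g27500, 40.9 against 0.497 CPM). Germin-like proteins, secreted enzymes linked to resistance, were called 19 times for root and 9 for shoot of 34, and the extremes were far apart. Germin-like protein 1-1 (LOC_Os01g18170) averaged 1289 CPM in WT root and 11.1 CPM in WT shoot, and germin-like protein 8-14 (LOC_Os08g35760) 0.00744 CPM in WT root and 705 CPM in WT shoot.

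Apocarotenoids, the carotenoid breakdown products that include strigolactones, abscisic acid and zaxinone, are made by enzymes whose genes were called for different organs. Of 20 carotenoid cleavage and strigolactone genes, 8 were called higher in root and 10 higher in shoot. The Zaxinone Synthase locus (LOC_Os09g15240, an identity taken from background knowledge) had 120, 124 and 109 counts in the libraries of WT root and 5, 26 and 7 counts in the WT shoot libraries and was called for root (log2 fold change 3.03). A gene named D27 (LOC_Os08g02210, chromosome 8, 751274 to 753264), for the isomerase that opens the strigolactone route, had 0, 0.0449 and 0.0446 CPM in the WT root libraries and 145, 137 and 142 CPM in the WT shoot libraries. Another D27-named gene (LOC_Os05g04070) averaged 0.966 CPM in WT root and 42.3 CPM in WT shoot, the cleavage dioxygenase CCD7 (LOC_Os04g46470) 1.5 CPM in WT root and 5.35 CPM in WT shoot and the CCD8 homologue A (LOC_Os01g38580) 2.25 CPM in WT root and 18 CPM in WT shoot. These 4 were called for shoot. The D27 and CCD8 names come from the listed homologue, and which loci act in the strigolactone route was not tested. Not all of the 20 listed genes are named here. The 4 shoot calls therefore do not assign the early steps of the route to an organ. The later enzymes of the MAX1 cytochrome P450 type included LOC_Os06g36920 at 49 CPM in WT root and 9.47 CPM in WT shoot, and LOC_Os01g50590 at 5.78 CPM in WT root with no count in WT shoot, both called for root. A further gene of that type, LOC_Os02g12890, averaged 15.3 CPM in WT root and 18.7 CPM in WT shoot and was not called. The receptor D14 (LOC_Os03g10620) averaged 423 ± 69.9 CPM in WT root and 203 ± 31.5 CPM in WT shoot, a call for root at a log2 fold change of 1.06, just past the 2-fold limit. Without WT root replicate 2 it was 0.92 and without WT shoot replicate 3 it was 0.97, and the call was lost in both cases. A carotenoid cleavage dioxygenase with a probable CCD4-type name (LOC_Os02g47510) averaged 2.9 CPM in WT root and 1145 CPM in WT shoot.

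Other hormone lists had calls for both organs. Of 52 jasmonate genes, 15 were called higher in root and 16 higher in shoot. The chloroplast lipoxygenases 2.3 (LOC_Os02g10120) and 2.1 (LOC_Os12g37260), which feed jasmonate synthesis, were called for shoot. Lipoxygenase 2.3 averaged 0.382 CPM in WT root and 1054 CPM in WT shoot, and lipoxygenase 2.1 0.0524 CPM in WT root and 419 CPM in WT shoot. The linoleate 9S-lipoxygenases, of the other oxygenation type, were called for root. Lipoxygenase 2 of that kind (LOC_Os03g52860) averaged 194 CPM in WT root and 9.64 CPM in WT shoot, and lipoxygenase 3 (LOC_Os03g49350) 139.8 CPM in WT root and 2.08 CPM in WT shoot. Of 48 cytokinin genes 17 were called higher in root and 17 higher in shoot. The cytokinin-activating phosphoribohydrolase (LOC_Os01g40630) averaged 11.1 CPM in WT root and 507 CPM in WT shoot, and the response regulators ORR2 (LOC_Os02g35180, 57.1 against 162 CPM, root against shoot, a call lost with library totals alone) and ORR10 (LOC_Os12g04500, 16.2 against 80.7 CPM) were called for shoot. Cytokinin hydroxylase (LOC_Os09g23820), which forms the trans-zeatin type sent up the xylem, averaged 58.3 CPM in WT root and 5 CPM in WT shoot and was called for root. Auxin genes were called 33 times for each organ out of 111, with the efflux carrier PIN2 (LOC_Os06g44970) of the root tip at 49 CPM in WT root and 0.971 CPM in WT shoot. Of 31 gibberellin genes 14 were called higher in root and 9 higher in shoot, and the growth repressor SLR1 (LOC_Os03g49990) averaged 171 CPM in WT root and 166 CPM in WT shoot and was not called. Abscisic acid genes numbered 25 (8 for root and 6 for shoot) and ethylene genes 39 (16 for root and 10 for shoot).

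Photoreceptor genes were called for shoot where they were called at all. Of 16 tested, 0 were called for root and 10 for shoot (median log2 fold change -2.52). Phototropin-2 (LOC_Os04g23890), the blue-light receptor that moves chloroplasts, averaged 5.92 ± 1.12 CPM in WT root and 269 ± 49.1 CPM in WT shoot, and phytochrome B (LOC_Os03g19590) 26.3 CPM in WT root and 62.8 CPM in WT shoot. The phytochrome B call, at a log2 fold change of -1.25, was lost with library totals alone (-0.70) and without WT shoot replicate 1 (-0.99). Phytochrome A (LOC_Os03g51030) averaged 107 CPM in WT root and 55.6 CPM in WT shoot, had a log2 fold change of 0.95 and was not called. With DESeq2 its value was 1.01, without WT shoot replicate 1 1.01 and without WT shoot replicate 2 1.02, past the limit for a root call. Of 18 clock genes 1 was called for root, a gene named PCL1 (LOC_Os01g62660, 10.7 against 1.52 CPM, root against shoot), and 7 for shoot. GIGANTEA (LOC_Os01g08700), an evening clock gene, had 1057, 1049 and 986 CPM in the WT root libraries and 1392, 1089 and 1066 CPM in the WT shoot libraries and was not called, and the morning gene LHY (LOC_Os08g06110) averaged 20.1 CPM in WT root and 67.3 CPM in WT shoot and was called for shoot. The labels give no time of day. Among 10 tested flowering genes, 1 was called for root and 6 for shoot. The call for root was a gene named Hd3a (LOC_Os11g18870) at 7.42 CPM in WT root and 0.0127 CPM in WT shoot, and a shoot call was a gene named FLOWERING LOCUS T (LOC_Os06g35940) at 0.202 CPM in WT root and 42.6 CPM in WT shoot. The florigen Hd3a itself (LOC_Os06g06320) held 0, 0 and 0 counts in WT root and 0, 21 and 3 in WT shoot and was not tested. Its shoot counts lay mostly in replicate 2, which also had the largest library.

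Transcription factors of organ identity followed the organ in part. YABBY factors, which set the lower face and midrib of leaves, were called for shoot in all 7 tested cases (median log2 fold change -8.91), among them DROOPING LEAF (LOC_Os03g11600), with no count in WT root and 3.14 CPM in WT shoot. OSH1 (LOC_Os03g51690), the knotted-type factor that keeps the shoot meristem undifferentiated, had 0, 0 and 0.0223 CPM in the WT root libraries and 12.1, 6.73 and 14.4 CPM in the WT shoot libraries. Of 74 homeobox factors 16 were called higher in root and 33 higher in shoot, and the epidermal factor ROC1 (LOC_Os08g08820) held no count in WT root and averaged 77.9 CPM in WT shoot. TCP factors, which shape leaves and buds, were called 1 time for root and 9 times for shoot of 19. CONSTANS-like and GATA factors were called 5 times for root and 15 for shoot of 38, led by a CONSTANS-LIKE 5 gene (LOC_Os04g42020) at 7.61 CPM in WT root and 511 CPM in WT shoot.

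LOB domain factors, which include the initiators of lateral and crown roots, were called 13 times for root and 3 for shoot of 22 (median log2 fold change 1.31). CRL1 (LOC_Os03g05510, named LOB domain-containing protein 29 in the table), needed to start crown roots, had 6.37, 5.79 and 5.2 CPM in the WT root libraries and 0, 0.0953 and 0.0648 CPM in the WT shoot libraries. The root hair factor RHL1 (LOC_Os06g08500, named bHLH82 in the table) averaged 11.7 ± 0.727 CPM in WT root and 0.0597 ± 0.0574 CPM in WT shoot. The crown root factor WOX11 (LOC_Os07g48560) averaged 3.56 CPM in WT root and 0.657 CPM in WT shoot, and QHB (LOC_Os01g63510, named WOX9 in the table), of the quiescent centre, 1.09 CPM in WT root and 0.35 CPM in WT shoot. SHORT-ROOT 1 (LOC_Os07g39820), which patterns the ground tissue, averaged 24.8 CPM in WT root and 9.57 CPM in WT shoot and was called for root, whereas its partner SCARECROW 1 (LOC_Os11g03110) averaged 8.81 CPM in WT root and 11.6 CPM in WT shoot and was not called. CRL5 (LOC_Os07g03250, named for AINTEGUMENTA in the table), also known for crown root initiation, was called for shoot. It held 0, 0 and 0 counts in WT root and averaged 3.79 CPM in WT shoot, at least 168-fold lower in root. Among the larger families, bZIP factors were called 33 times for root and 11 for shoot of 82, NAC factors 35 and 15 of 95, AP2/ERF factors 49 and 21 of 121 and WRKY factors 40 and 26 of 95. MYB factors (52 for root and 45 for shoot of 180) and bHLH factors (35 and 31 of 102) had similar numbers on both sides. Some members of these lists carry names of other proteins. On the WRKY list, LOC_Os08g17390 is named for a photosynthetic NDH subunit (called for shoot) and LOC_Os08g09810 for RICESLEEPER 1 (called for root). The most abundant root factors per length included an ethylene response factor (LOC_Os03g08470, named RAP2-2, 1373 against 42.7 CPM, root against shoot) and a MYBAS2-named MYB (LOC_Os05g02420, 1141 against 83.7 CPM). In TPM these had 1366 in WT root and 29.3 in WT shoot for the first, and 841 and 42.6 for the MYB. The TGA-type bZIP TGAL4 (LOC_Os11g05480) averaged 172 CPM in WT root and 1.61 CPM in WT shoot.

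**Figure D4:**
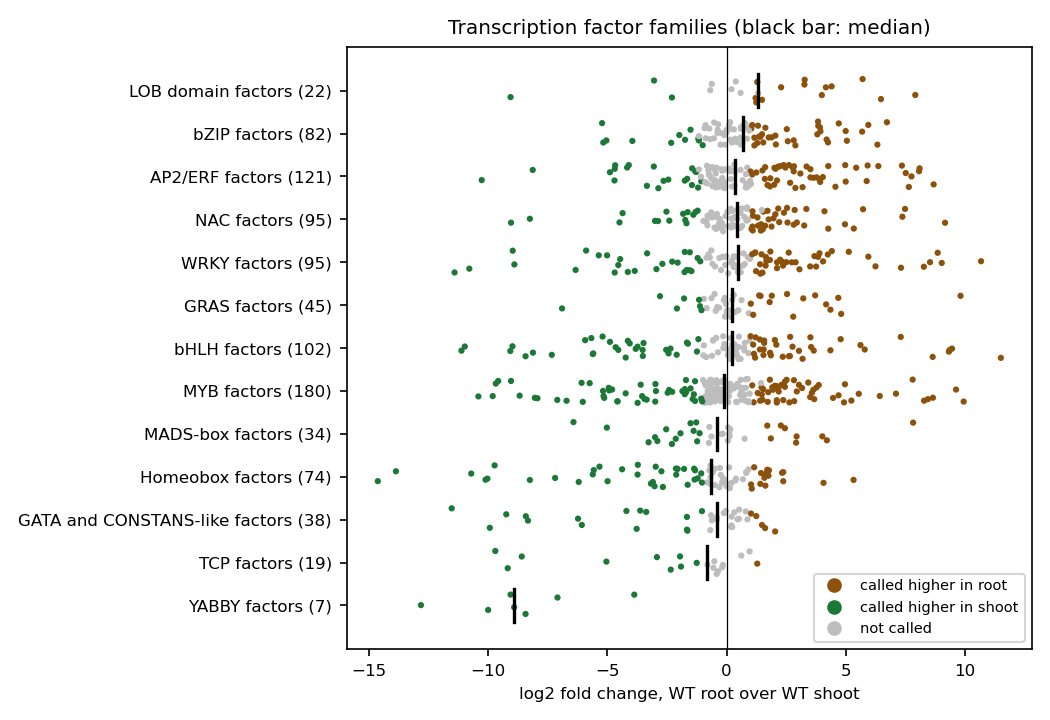
Log2 fold change, WT root over WT shoot, of every tested member of 13 transcription factor family lists (1 point per gene, coloured by call, n = 3 libraries per organ). The black bar is the list median, and some members carry names of other proteins. All 7 YABBY points lie on the shoot side, and the median of the LOB domain factors, 1.31, lies on the root side.

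Some genes held no count in the other organ at this depth. Of the genes called for root, 491 held no count in any WT shoot library and 73 of these averaged at least 10 CPM in root. Of the genes called for shoot, 416 held no count in any WT root library and 83 averaged at least 10 CPM in shoot. The largest bound on the root side, among named genes, was that of a salt stress-induced protein (LOC_Os01g25280, chromosome 1, 14280746 to 14282187), with 83.7, 90.0 and 89.5 CPM in the WT root libraries and 0 in every WT shoot library, at least 3262-fold higher in root. A cytochrome c oxidase 6b-1 gene (LOC_Os02g54880), which encodes a respiratory subunit, was at least 2108-fold higher in root, and the tonoplast channel TIP2-3 (LOC_Os04g46530) at least 1914-fold. The largest bound on the shoot side, again among named genes, was that of an osmotin-like protein (LOC_Os12g38170, chromosome 12, 23435458 to 23436594). It had 0 CPM in every WT root library and 705, 677 and 512 CPM in the WT shoot libraries, at least 28099-fold lower in root. An acid phosphatase 1 gene (LOC_Os05g09740) was at least 14241-fold lower in root and the MLP-like protein 423 gene (LOC_Os04g39150) at least 10006-fold. Among genes with a trace in the other organ, the multicopper oxidase LPR1 (LOC_Os01g03630), which in Arabidopsis acts in the root's phosphate response, averaged 293 CPM in WT root and 0.0191 CPM in WT shoot, and the GOS9 protein (LOC_Os06g07250) 416 CPM in WT root and 0.0709 CPM in WT shoot.

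Some stretches of neighbouring genes of 1 family were called for the same organ throughout. Of 3983 runs of neighbouring tested genes called for root, single genes included, 11 held at least 8 genes, and of 4663 for shoot 9 did, and not all of these were of 1 family. The examples below were chosen from them after their values were seen. All 10 germin-like protein genes 8-2 to 8-11 (chromosome 8, 5208385 to 5265389) were called for root, at 1.59 to 209 CPM in WT root and 0.0254 to 4.2 CPM in WT shoot. A stretch of 9 PR-1 type protein genes (chromosome 7, 1319031 to 1524629) was called for root throughout, at 2.07 to 193 CPM in WT root and 0 to 11.1 CPM in WT shoot. The first of them (LOC_Os07g03279) had 2.33, 83.8 and 11.5 CPM in the WT root libraries and 0, 0.0191 and 0 CPM in the WT shoot libraries, highest in root replicate 2 (edgeR adjusted p = 0.0157). The call of that gene was lost without any 1 of the WT shoot libraries, at edgeR adjusted p-values of 0.0704 to 0.0989, and with limma-voom, at 0.0505. This gene and LOC_Os07g03458 were not called in OX6, where the other 7 were called for root. Also called for root throughout was a stretch of 14 genes (chromosome 7, 21116319 to 21241263). It holds 10 cysteine-rich receptor-like kinase 6 genes, 3 glucanases and a retrotransposon-named gene, at 1.43 to 372 CPM in WT root and 0.168 to 14.6 CPM in WT shoot. On the shoot side stood 8 homologues of the rust resistance kinase Lr10 among 11 genes (chromosome 1, 935574 to 1012410). These homologues were low, at 0 to 2.13 CPM in WT root and 0.584 to 8.49 CPM in WT shoot. The last gene of the run, a WAT1-related gene (LOC_Os01g02870), averaged 1.02 CPM in WT root and 51 CPM in WT shoot. Copies this similar can share reads, so their counts are not independent.

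Neighbours of 1 family could also be split between the organs. RCc3 (LOC_Os02g44310, chromosome 2, 26804988 to 26805825) had 1915, 1801 and 1899 CPM in the WT root libraries and 8.26, 26.6 and 32.3 CPM in the WT shoot libraries. The next gene, LOC_Os02g44320, a putative lipid-binding protein at 26814556 to 26815543, had 0 CPM in every WT root library and 488, 669.9 and 609.9 CPM in the WT shoot libraries. A run of 8 cortical cell-delineating protein genes and a U-box gene on chromosome 10 was called for root, with LOC_Os10g40510 at 758 CPM in WT root and 6.69 CPM in WT shoot, and the gene next to it, a pEARLI1-like lipid transfer protein (LOC_Os10g40420), was called for shoot at 0.869 CPM in WT root and 31 CPM in WT shoot. The alcohol dehydrogenase 2 pair on chromosome 11 described above had the same form. On chromosome 12 the lipid transfer protein genes LOC_Os12g02310 and LOC_Os12g02340 averaged 0.0675 CPM in WT root and 585 CPM in WT shoot and 0.0149 CPM in WT root and 391 CPM in WT shoot, while their neighbour LOC_Os12g02300 averaged 63.2 CPM in WT root and 316 CPM in WT shoot, a smaller difference in the same direction.

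**Figure D5:**
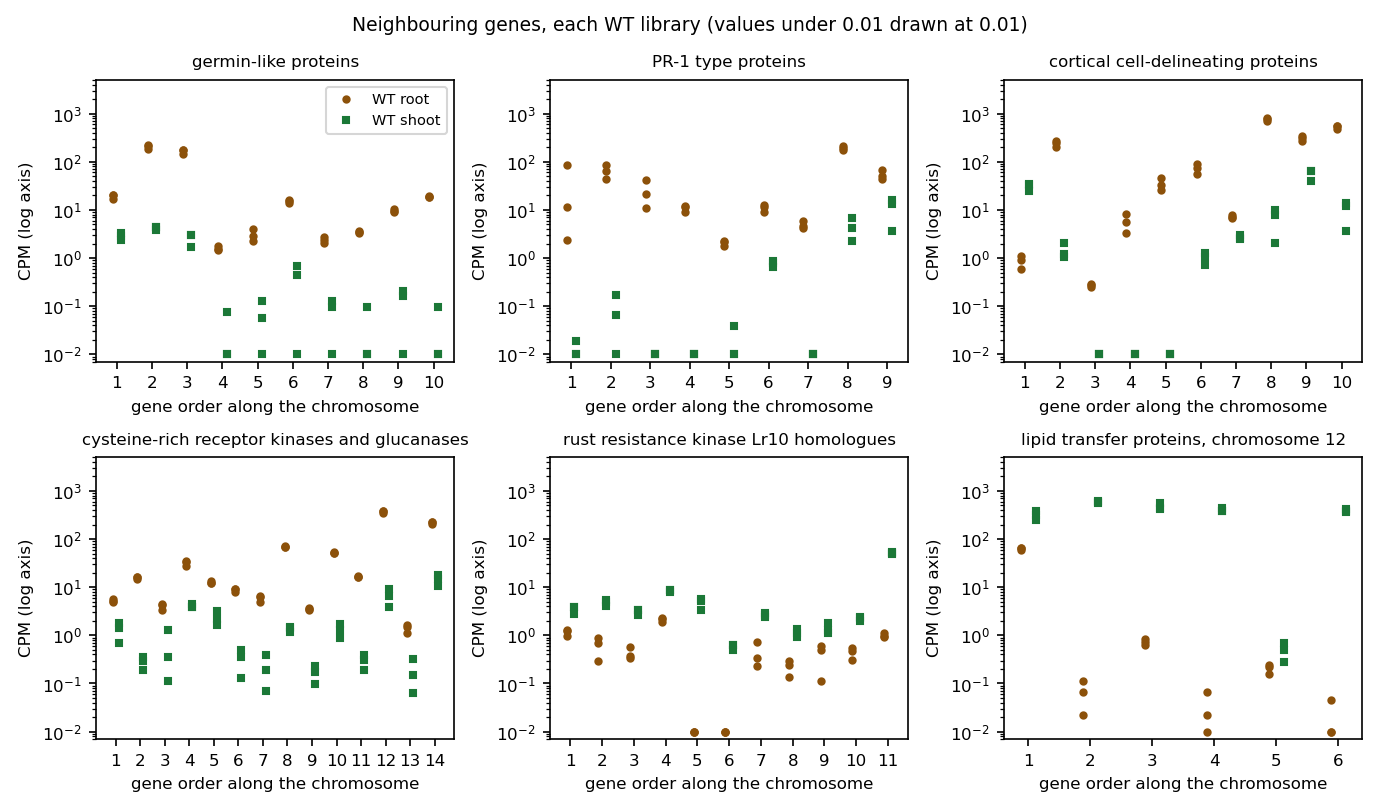
CPM on a log axis of neighbouring genes in 6 stretches of the genome, in chromosome order, with 1 point per library (WT root as circles to the left, WT shoot as squares to the right of each position). Root points lie above shoot points for all 10 germin-like and 9 PR-1 type genes, and the first gene of the cortical cell-delineating stretch has the opposite order.

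The same organ comparison in OX6, on 6 libraries that the WT fit did not use, tested 28007 genes and called 6352 for root (22.7%) and 6887 for shoot (24.6%). Of the 6011 WT root calls, 5371 were called for root in OX6, which is 89.4% of the WT list and 84.6% of the OX6 list. Of the 7012 WT shoot calls, 6167 were called for shoot in OX6, 87.9% of the WT list and 89.5% of the OX6 list. The organ was the opposite in OX6 for 6 WT root calls and for 1 WT shoot call, a gene without a name (LOC_Os07g32710, log2 fold change 2.87 in OX6 and -3.80 in WT). That gene was low in both WT organs, at 0.0823 CPM in WT root and 1.17 CPM in WT shoot. In OX6 it averaged 418 CPM in root and 57.2 CPM in shoot. Of the photosystem list, 57 of the 58 shoot calls held in OX6, of the class III peroxidases 83 of 86 root calls, and of the NB-ARC receptors 185 of 206. The 6 root calls that changed side include the Zaxinone Synthase locus, which is the overexpressed gene of that line.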

How the data were processed

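The 12 deposited RNA-seq libraries came from poly(A) RNA extracted with TRI-Reagent and a column kit, per the labels' protocols. The values are raw counts per gene, deposited by the authors in 1 table together with gene name, domain, chromosome, position and length. Per the submitters' processing notes, HISAT2 2.0.5 aligned the reads and featureCounts 1.5.0-p3 counted them. Coordinates come from the deposited table, and its build, annotation release and strand setting were not given in the sources used here. A gene and an overlapping or antisense gene may therefore share reads.

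The WT libraries were fitted in edgeR 4.0.16 (R 4.3.3) by the quasi-likelihood test with TMM scaling, on genes that filterByExpr kept at a minimum count of 10 and a minimum total of 15, with Benjamini-Hochberg adjustment over all tested genes. DESeq2 1.42.0 and limma 3.58.1 served as alternatives, beside other scalings, filters, limits and left-out libraries. Per-length levels (TPM) were computed from the counts and the deposited gene length. Total counts ran from 34355048 to 62910092 in the WT libraries. A fold against an organ without counts is a bound, at 3 counts over its 3 libraries.

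The 69 gene lists and 51 landmark loci were chosen with earlier results of these data known, so list counts are descriptions. Genes named are the landmarks, the 10 largest folds per direction with at least 50 CPM in the higher organ, the 5 most abundant per length in each organ and the 2 most abundant called members per list and direction. The largest folds and the most abundant per length were taken among genes with an informative name. The largest folds were also required to show no overlap between the organs, so non-overlap was fixed in advance for them. Others, such as isozymes, pathway partners and neighbours, were chosen after their values were seen.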

Additional observations from a re-analysis of the deposited data

Results flagged for a closer look

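The root to shoot difference of some named genes differed between OX6 and WT, and these were picked out by a test of that difference, an interaction term in edgeR's quasi-likelihood fit of all 12 libraries. The value given for each gene is the WT log2 fold change, root over shoot, minus that of OX6, with n = 3 libraries in each of the 4 groups. Over all 29042 genes tested, 572 had an adjusted p under 0.05, of which the WT value was higher by at least 2-fold for 210 and lower by at least 2-fold for 123. Of 195 tested genes named in these sections, 12 had a difference of at least 2-fold at an adjusted p under 0.05.

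For the Zaxinone Synthase locus, the gene overexpressed in OX6 (LOC_Os09g15240), the difference was 5.56 (SE 0.24, adjusted p = 7.11e-10), with a log2 fold change of -2.51 in OX6 and 3.03 in WT. Its level in OX6 was 318 CPM in root and 1806 CPM in shoot, against 2.64 CPM in WT root and 0.3 CPM in WT shoot. For a nitrate reductase (LOC_Os02g53130), the difference was 3.13 (SE 0.174, adjusted p = 2.19e-08), with a log2 fold change of 1.25 in OX6 and 4.29 in WT. This nitrate reductase averaged 134 CPM in OX6 root and 56.2 CPM in OX6 shoot, against 186 CPM in WT root and 9.57 CPM in WT shoot. The fold changes of each genotype come from its own fit, so their difference can depart a little from that of the joint fit. A higher value in WT than in OX6 was also found for other genes, with a difference of 1.67 for siroheme synthase (LOC_Os01g44050, adjusted p = 2.15e-07), 1.35 for a ferredoxin-6 gene (LOC_Os01g64120, adjusted p = 0.000807), 1.39 for an NPF6.3-named transporter (LOC_Os10g40600, adjusted p = 0.000916), 1.33 for another nitrate reductase (LOC_Os08g36480, adjusted p = 0.00251) and 1.14 for an asparagine synthetase (LOC_Os03g18130, adjusted p = 0.0097). A lower value in WT was found at -6.65 for the gene without a name that was low in both WT organs (LOC_Os07g32710, adjusted p = 6.13e-08). The difference was -1.34 for glutathione S-transferase GSTU6 (LOC_Os10g38710, adjusted p = 0.00288) and -1.99 for the CCD8 homologue A (LOC_Os01g38580, adjusted p = 0.00358). It was -1.17 for nicotianamine synthase 3 (LOC_Os07g48980, adjusted p = 0.00383) and -2.58 for a D27-named gene (LOC_Os08g02210, adjusted p = 0.0197). Nicotianamine synthase 3 had a log2 fold change of 0.96 in OX6 and -0.30 in WT.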

How the results depend on the processing

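The calls kept their numbers, within 1.5 times, under RLE and upper-quartile scaling, DESeq2, limma-voom, other count filters and a joint fit of all 12 libraries. The balance turned under upper-quartile scaling, with 6825 calls for root and 6418 for shoot, a share of 51.5% for root. Library totals alone gave 9225 calls for root, and the share of root calls became 62.9%, beside 46.2% in the main fit. Without a fold limit 20002 genes passed, 9717 of them higher in root. At a limit of 4-fold 8329 passed, 3722 for root and 4607 for shoot. Leaving out 1 library at a time gave 5910 to 6407 calls for root and 6861 to 7152 for shoot. DESeq2 called 6229 for root and 6770 for shoot, and a test against a 2-fold change itself (glmTreat) 4923 and 6016. With the replicate number as a block, 5981 genes were called for root and 6882 for shoot. Deviations of same-numbered root and shoot libraries correlated at 0.013, 0.013 and 0.03, so the numbers were not taken as a pairing.

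Of 195 tested genes named in the text, 158 kept their direction and side of the limit under all alternatives. The direction turned only for genes that were not called: with library totals alone to 0.35 for GIGANTEA (LOC_Os01g08700), 0.26 for LOC_Os02g12890, 0.32 for DMAS1 (LOC_Os03g13390), 0.36 for SPX4 (LOC_Os03g61200), 0.25 for NAS3 (LOC_Os07g48980), 0.17 for the nitrate reductase LOC_Os08g36480 and 0.16 for SCARECROW 1 (LOC_Os11g03110). For SLR1 (LOC_Os03g49990) leaving out 1 library gave -0.02 to 0.19. The cause was not tested, beyond the shift of all genes that library totals alone bring. At this depth a gene without a count in an organ could still hold up to 3 counts over its 3 libraries, and lower levels were not detectable.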

Other observations

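Other gene families had members called for either organ. Cytochrome P450 enzymes, which oxidise many plant metabolites, had 163 tested genes, of which 51 were called for root and 58 for shoot. CYP78A9 (LOC_Os03g04190) averaged 83.4 CPM in WT root and 2.38 CPM in WT shoot, and CYP87A3 (LOC_Os03g45619) 0.63 CPM in WT root and 379 CPM in WT shoot. Of 70 glutathione S-transferases, 24 were called for root and 25 for shoot, with GSTF2 (LOC_Os01g55830) at 1524 CPM in WT root and 356 CPM in WT shoot and GSTU6 (LOC_Os10g38710) at 0.494 CPM in WT root and 249 CPM in WT shoot. Of 118 UDP-glycosyltransferases, 38 were called for root and 50 for shoot. Of 126 ABC transporters, 27 were called for root and 37 for shoot, shares of 21.4% and 29.4% beside 21.6% and 25.2% over all genes. Of 72 heat shock proteins, 11 were called for root and 20 for shoot, and those for shoot included the chloroplast chaperones HSP90-5 (LOC_Os09g29840, 26.1 CPM in WT root and 300.2 CPM in WT shoot) and stromal HSP70 (LOC_Os05g23740, 64.7 CPM in WT root and 506 CPM in WT shoot). Fasciclin-like arabinogalactan proteins, which sit at the cell surface, belong to a list of 29 tested genes, of which 8 were called for root and 3 for shoot and 18 were not called. FLA9 on chromosome 2 (LOC_Os02g20560) averaged 0.0452 CPM in WT root and 332 CPM in WT shoot, while the FLA9 gene on chromosome 5 (LOC_Os05g48890) averaged 340.1 CPM in WT root and 42.3 CPM in WT shoot. Among 34 MADS-box factors, 9 were called for root and 14 for shoot, with MADS25 (LOC_Os04g23910) at 14.8 CPM in WT root and 0.0445 CPM in WT shoot and MADS56 (LOC_Os10g39130) at 31.3 CPM in WT root and 181 CPM in WT shoot.

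Some of the longest runs of neighbouring genes called for the same organ carry no name in the deposited table. On chromosome 10 a run of 13 genes called for root (chromosome 10, 16530983 to 16640712) held 12 genes without a name. Its members LOC_Os10g31680 and LOC_Os10g31660 averaged 221 and 199 CPM in WT root and 0.0254 and 0.499 CPM in WT shoot, and LOC_Os10g31720 held no count in WT shoot at 119.5 CPM in WT root. A run of 14 genes called for root on chromosome 8 (chromosome 8, 27651646 to 27687584) had no names either, and its members were low, between 0.884 and 7.53 CPM in WT root and between 0.0191 and 2.61 CPM in WT shoot. The longest run for shoot, 17 genes on chromosome 6 (chromosome 6, 1011584 to 1175251), mixed aspartyl protease genes with genes that carry only domains of unknown function. Its protease genes LOC_Os06g02780 and LOC_Os06g02900 averaged 0.0225 and 0.0227 CPM in WT root and 113 and 116 CPM in WT shoot. A different kind of run lay on chromosome 10 (chromosome 10, 10748893 to 10939475), where 6 of 10 neighbouring gene models called for shoot bear names of proteins that the plastid genome encodes, such as photosystem II protein D1. Such names were carried by 113 models in all, of which 23 were tested, 1 was called for root and 22 for shoot. Their summed share of the counts was 0.0059% in WT root and 0.00719% in WT shoot, beside a median log2 fold change of -7.85 over the tested models. The call for root, a gene named for RNA polymerase subunit beta'' (LOC_Os07g25150), averaged 48.6 CPM in WT root and 6.86 CPM in WT shoot. That gene made up most of the root share and a small part of the shoot share, and it is also on the MYB factor list. Reads of plastid transcripts and of nuclear copies cannot be told apart in these counts, and the libraries select for poly(A) tails, which most plastid transcripts lack.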
